A study of Mus musculus with 26 samples.

Results

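Slc2a4, Lpin1, Ech1, Ppp1r1a, Inmt and Aadat are 6 genes of energy, lipid and amino acid metabolism that were lower in mouse lines without dystrophin or a sarcoglycan than in wild type mice. They were selected on that fall, which is why their values against wild type are given here as a description and without a test. The direction of the deposited ratios is likely and not stated, and with the opposite direction every higher would be a lower. Each was on 2 of the 13662 rows of the deposited table that the platform annotation pairs with 1 gene, and the 2 rows of a gene were averaged. They are 6 of 6540 genes measured.

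The 26 arrays had 2 channels each and carried 26 RNA samples, 2 from each of 13 groups of mice. The labels give each group only as a short name. The wild type strains were bl6 and bl10. The lines without dystrophin were mdx and mdx3cv, and those without a sarcoglycan included sgca, sgcb, sgcb2 and sgcd; the 7 lines of these kinds, 14 samples in all, are called DS lines below. By name, dysf and sjl lack dysferlin, sspn lacks sarcospan and hDMD carries the human DMD gene. The labels give no tissue, age, sex, strain of the lines, allele, promoter or treatment, so background strain and the missing protein cannot be told apart in a comparison that holds a line. Nor is it stated that both samples of a group were taken from different mice, so errors and p-values here describe the variation among these RNA samples, part of which may be technical. What each line lacks was read from its name. The arrays hold ratios and no absolute levels, so the markers of a tissue can be compared between groups but not set against one another.

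The gene that a line lacks was lower in 7 of 9 pairs of gene and line, and this check also decided the direction of the ratios. Sgca in sgca was at -4.33 ± 0.49 (SE) against wild type, Sspn in sspn at -1.21 ± 0.40, Sgcb at -1.25 ± 0.63 in sgcb and -1.01 ± 0.55 in sgcb2, and Dmd at -0.68 ± 0.31 in mdx and -0.46 ± 0.33 in mdx3cv. Sgcd in sgcd was at -0.30 ± 0.45, within its error. Dysf was at 0.55 ± 0.62 in the libraries labelled dysf and at 0.76 ± 0.50 in those labelled sjl, so that the labels of these lines are not borne out by the gene's RNA. Where the spots lie in these genes is not known here.

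Muscle fibres take up glucose through the transporter that Slc2a4 encodes, GLUT4, which insulin and contraction move from vesicles inside the fibre to its surface. Fatty acids taken up by the fibre are either built into glycerolipids, a path in which lipin 1 (Lpin1) removes the phosphate from phosphatidic acid, or broken down in mitochondria and peroxisomes, where Ech1 is an auxiliary enzyme for unsaturated chains. Ppp1r1a encodes inhibitor 1, which blocks protein phosphatase 1 once protein kinase A has phosphorylated it and thereby takes part in the hormonal control of glycogen. Inmt transfers a methyl group from S-adenosylmethionine to indole amines and related compounds. Aadat is an aminotransferase that acts on 2-aminoadipate and kynurenine in the breakdown of lysine and tryptophan.

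The reference held no promoter window for Slc2a4 or Ppp1r1a. Windows with the bases around a start site are shown for Lpin1, Inmt and Ech1. They run 5′ to 3′ along the gene, from 250 bases before to 50 after a start, and come from RefSeq on the build GRCm38.p6.
Lpin1, chr12:16610917-16611216, minus strand: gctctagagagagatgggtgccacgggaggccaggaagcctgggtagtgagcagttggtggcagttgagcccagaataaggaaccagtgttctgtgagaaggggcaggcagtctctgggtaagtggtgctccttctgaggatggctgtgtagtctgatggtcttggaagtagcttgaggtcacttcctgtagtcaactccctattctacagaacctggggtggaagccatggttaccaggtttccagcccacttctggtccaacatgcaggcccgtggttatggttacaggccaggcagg
Inmt, chr6:55174941-55175240, minus strand: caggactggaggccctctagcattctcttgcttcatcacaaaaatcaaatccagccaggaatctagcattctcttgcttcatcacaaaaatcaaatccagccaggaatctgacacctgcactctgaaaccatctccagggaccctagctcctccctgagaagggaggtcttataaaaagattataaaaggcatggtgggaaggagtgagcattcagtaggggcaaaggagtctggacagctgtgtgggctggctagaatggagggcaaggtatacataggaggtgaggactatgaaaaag
Ech1, chr7:28825088-28825387, plus strand: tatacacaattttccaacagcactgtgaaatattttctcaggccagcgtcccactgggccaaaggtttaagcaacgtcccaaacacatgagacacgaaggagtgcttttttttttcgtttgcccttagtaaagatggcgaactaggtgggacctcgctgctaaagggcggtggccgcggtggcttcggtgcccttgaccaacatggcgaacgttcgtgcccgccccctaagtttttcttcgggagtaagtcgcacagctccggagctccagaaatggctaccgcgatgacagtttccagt

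The windows differed in base composition. The Ech1 window held 19 CG dinucleotides and the Lpin1 window 2, against a median of 7 in the 32851 windows of the reference. Lpin1 runs from 16535669 to 16653903 on the minus strand. Its window lies inside the gene, at a start other than the outermost, which was not searched. The Inmt window held 0 CG dinucleotides and a stretch of 46 bases that occurs in it 2 times. Short motifs of factors known for metabolic genes were searched as plain letters on both strands of these windows. None of the 8 motifs matched in the windows of Lpin1, Inmt, Ech1 or Aadat. The nuclear receptor half-site AAGGTCA is in 4.72% of all windows, its extended form TCAAGGTCA, which contains it, in 0.423%, the E-box CACGTG in 7.15%, the D-box TTATGTAA in 0.938% and the cAMP response element TGACGTCA in 1.79%. TTCNNNGAA, the STAT motif, is in 8.3%, the MEF2 motif in 3.69% and the glucocorticoid response element in 0.00913%. The absence of a match says only that these letters are not in these windows.

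The 2 rows of each gene followed each other closely over the 26 arrays, as the plot of row 1 against row 2 shows. The correlation between rows ran from 0.943 for Inmt to 0.999 for Lpin1, against a median of 0.684 over the 6364 other genes on 2 rows. The selected genes varied more across groups than most genes. Their spans were at or above those of 73.1% (Ech1) to 98.9% (Inmt) of all genes. A wide span by itself raises such a correlation, so the median is not a matched reference and nothing is read from it about measurement quality. The rows of Inmt were 3.77 log2 units apart on the array of a bl6 sample against an sgca sample, and those of Ppp1r1a 1.75 apart on the array of an mdx3cv sample against an mdx sample. The next widest gap, of 1.11, was again in Inmt.

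**Figure D1:**
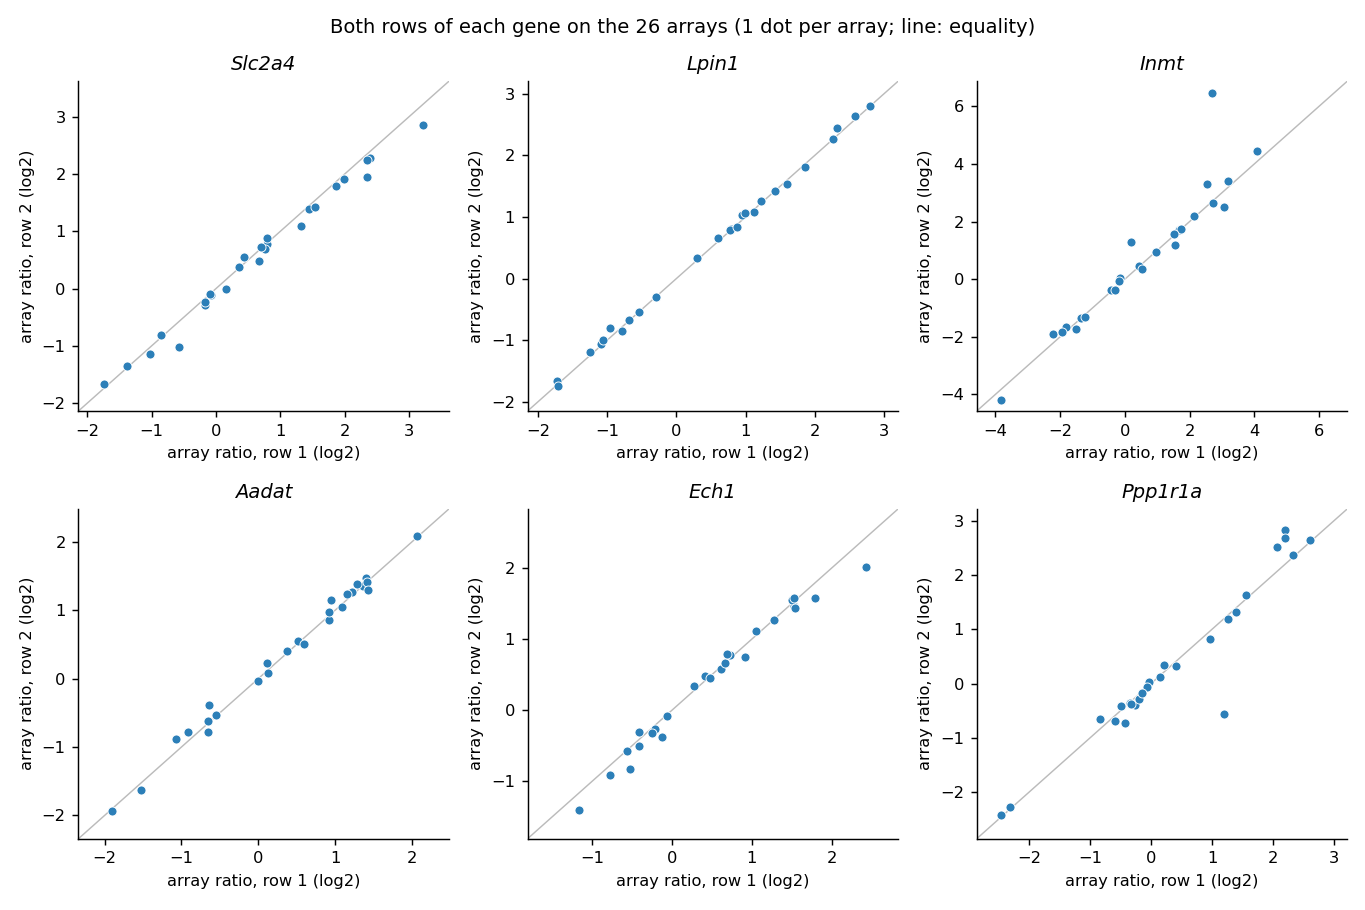
Log2 ratio of channel 1 over channel 2 in row 1 (horizontal) and row 2 (vertical) of each gene, 1 dot for each of the 26 arrays, with the line of equality. The dots lie along the line except for 1 array of Inmt, where the rows differ by 3.77, and 1 array of Ppp1r1a, where they differ by 1.75.

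The rows named Aadat were not distinct from rows of other genes. Over the 26 arrays, 16 rows of 10 other genes correlated above 0.98 with them (this value was chosen after the correlations were seen). These genes were Cacna1e, a calcium channel subunit, Hexa, a lysosomal enzyme, Ugt8a, Man1a, Snap25, a synaptic protein, Nat2, Nppc, Rnd2, Aldh1a3 and Cox8b, a subunit of cytochrome c oxidase. The row of Hexa closest to Aadat had a correlation of 0.997 and a median difference of 0.0334 log2 units. Some of these rows also lay beside the Aadat rows in the table. Aadat was on rows 10974 and 11658, Cacna1e on rows 10972 and 11656, and Hexa on rows 10976 and 11660. For Slc2a4, Lpin1, Ech1, Ppp1r1a and Inmt, 0 rows of other genes passed 0.98, and the highest correlation with another row was 0.939. Over all genes, 73 (1.12%) had another gene with a correlation above 0.98. Which transcript the Aadat rows measured is therefore not settled by these data, and values of Aadat below are values of the rows that carry this name. The cause of the likeness was not tested.

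**Figure D2:**
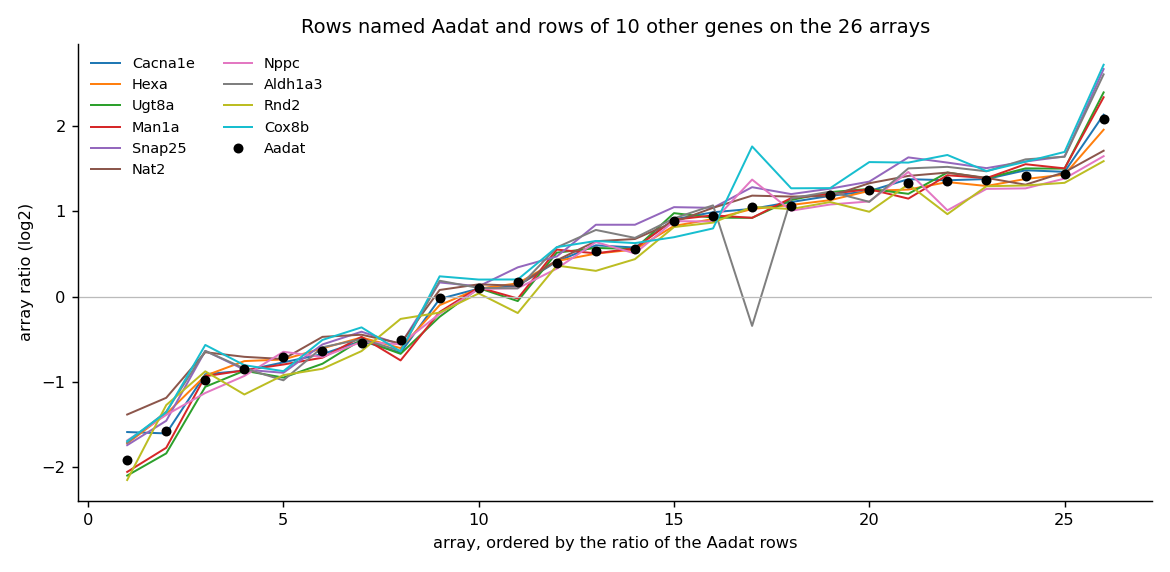
Log2 ratio on each of the 26 arrays, ordered by the ratio of the Aadat rows (black dots), with 1 line for each of 10 other genes whose rows correlated with them above 0.98. The lines run along the dots over a range of several log2 units, apart from 1 array for Aldh1a3.

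Levels in each group came from 1 fit over all arrays, with each gene's level set to 0 at the mean of the 13 groups, on the log2 scale. A sample's level is the group level plus the part of that sample's deviation which the fit assigns to it. Since each sample was on only 2 arrays, the fit pulls the 2 samples of a group together, and their closeness is not a measure of replicate error. The median gap between the 2 samples of a group was 0.101 for Slc2a4 as fitted and 0.576 when every sample had a free level. The SE of a group level carries the replicate error. Free levels leave no residual, so all array error enters them and cannot be told from differences between samples. Each sample was once in each channel, so the mean ratio over the arrays measures the dye alone. It was between 0.36 for Aadat and 0.65 for Inmt, against a median of 0.11 over all genes, and was removed by the fit.

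**Figure D3:**
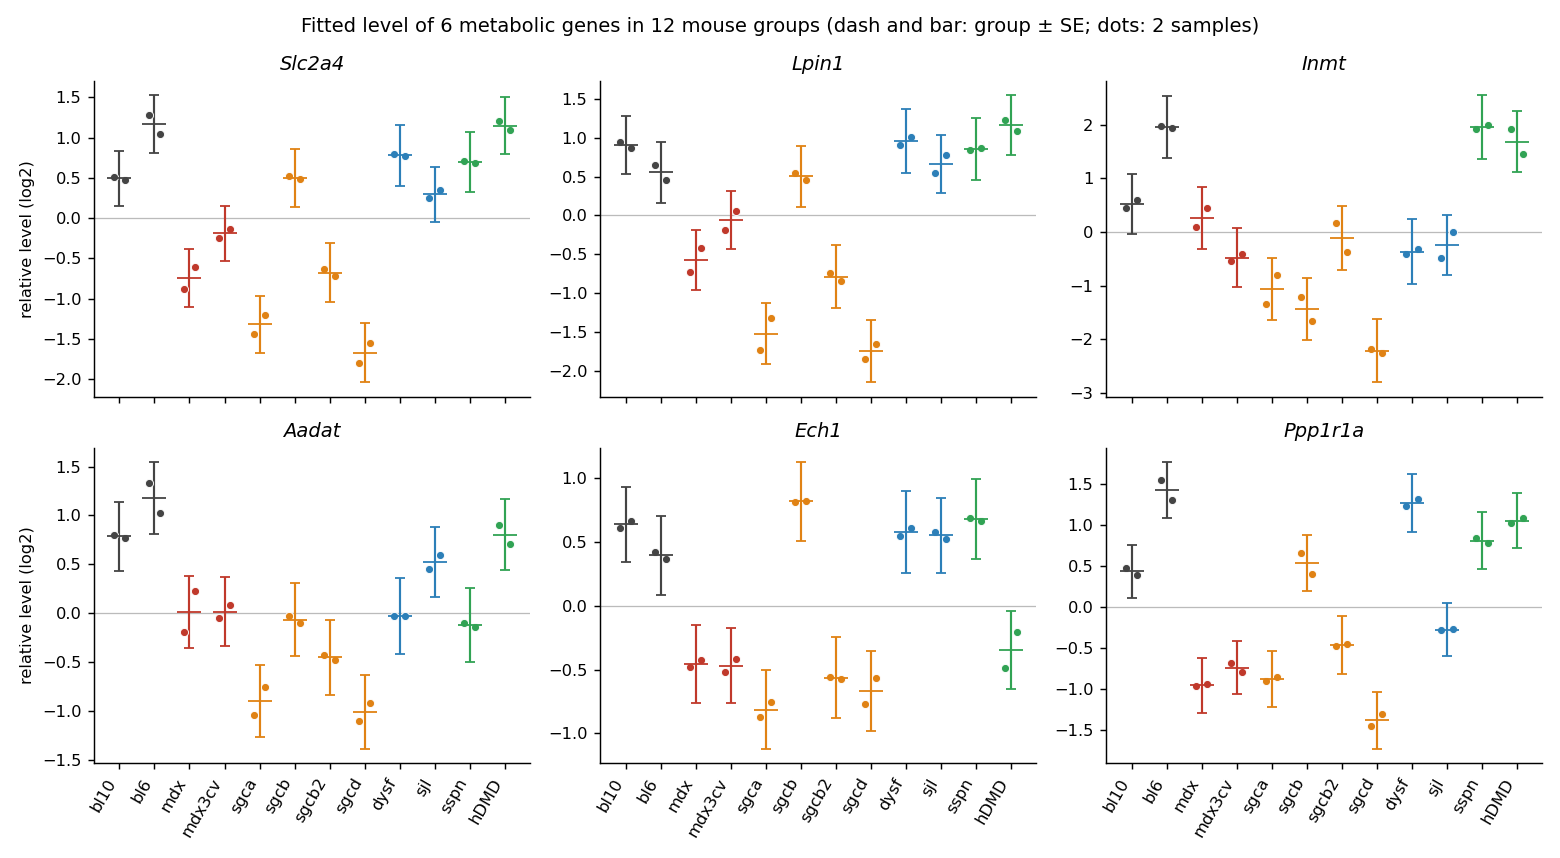
Relative level (log2, 0 at the mean of 13 groups) of the 6 genes in 12 groups, with the group level as a dash, its SE as a bar and the 2 samples as dots. For Slc2a4, Lpin1 and Ppp1r1a, both fitted samples lie below every wild type sample in mdx, mdx3cv, sgca, sgcb2 and sgcd. In sgcb this holds for Inmt but not for Slc2a4, Lpin1 or Ppp1r1a. The fit pulls the 2 samples of a group together.

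Slc2a4 stood at 0.51 and 0.48 in the samples of bl10 and at 1.28 and 1.05 in those of bl6. The 14 DS samples ran from -1.80 through a median of -0.63 to 0.53, and 12 of them lay below every wild type sample. The exceptions were both sgcb samples, at 0.53 and 0.48. The samples of dysf were at 0.79 and 0.77, those of sjl at 0.25 and 0.34, those of sspn at 0.71 and 0.68 and those of hDMD at 1.203 and 1.096. The transporter gene was thus low in the DS lines other than sgcb, somewhat below the wild type samples in sjl and within or above their lower end in dysf, sspn and hDMD. In bulk RNA, fewer fibres and less of this RNA per fibre cannot be told apart, which holds for all 6 genes. The mean of the DS lines was 2.80-fold below wild type, a log2 difference of -1.49 ± 0.30 (SE, 14 samples against 4).

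Lpin1 stood at 0.95 and 0.87 in bl10 and at 0.65 and 0.46 in bl6. The DS samples ran from -1.85 through a median of -0.76 to 0.55, with 12 of 14 below every wild type sample and sgcb again at the top, at 0.55 and 0.46. The other groups lay within or above the range of the wild type samples: dysf at 0.91 and 1.01, sjl at 0.55 and 0.79, sspn at 0.84 and 0.87, and hDMD at 1.23 and 1.09. Lpin1 and Slc2a4 had the same 2 lowest groups, sgcd and sgca. The mean log2 difference of the DS lines from wild type was -1.46 ± 0.33 (SE), or 2.76-fold.

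Ech1 had the smallest fall of the 6. Its wild type samples were at 0.61 and 0.66 in bl10 and at 0.42 and 0.37 in bl6. The DS samples ran from -0.87 through a median of -0.50 to 0.82, the top again being sgcb, at 0.81 and 0.82. As fitted, both sgcb samples lay above all 4 wild type samples, and the other 12 DS samples lay below all of them. The hDMD samples were low as well, at -0.49 and -0.21, while dysf was at 0.55 and 0.61, sjl at 0.58 and 0.52 and sspn at 0.69 and 0.67. The hDMD samples of the other genes were all above 0. With every sample given a free level, however, the hDMD samples of Ech1 were at -1.71 and 0.68, so only sample 1 was low there. The mean log2 difference of the DS lines from wild type was -0.87 ± 0.26 (SE), or 1.83-fold, and it was -1.07 without sgcb.

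Ppp1r1a stood at 0.48 and 0.39 in bl10 and at 1.56 and 1.31 in bl6. The DS samples ran from -1.46 through a median of -0.83 to 0.66, and again only the sgcb samples, at 0.66 and 0.41, were not below every wild type sample. The libraries labelled dysf were at 1.23 and 1.31 and those labelled sjl at -0.28 and -0.27. The samples of sspn were at 0.84 and 0.78 and those of hDMD at 1.02 and 1.08. The inhibitor gene was therefore low in sjl as well as in the DS lines other than sgcb. The mean log2 difference of the DS lines from wild type was -1.61 ± 0.28 (SE), or 3.05-fold.

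Inmt had the widest range, with group levels that spanned 4.16 log2 units; 98.9% of all genes spanned no more. Its wild type samples were at 0.44 and 0.61 in bl10 and at 1.97 and 1.93 in bl6. The DS samples ran from -2.25 through a median of -0.60 to 0.44, all below the wild type samples, although the highest, in mdx, was within 0.01 of the lowest wild type sample. In sgcb Inmt stood at -1.22 and -1.66. The libraries labelled dysf and sjl were low too, dysf at -0.41 and -0.32 and sjl at -0.49 and 0.00, whereas sspn at 1.92 and 1.99 and hDMD at 1.92 and 1.45 were near bl6. Inmt was thus low in sgcb, dysf and sjl, where Lpin1 was not. With every sample given a free level, however, the sgcb samples of Inmt were at 0.08 and -2.88, and the lowest wild type sample was at 0.65. With free levels, the low level of Inmt in sgcb was thus mostly that of sample 2. The mean log2 difference of the DS lines from wild type was -2.02 ± 0.48 (SE), or 4.07-fold, and was larger against bl6 alone, at -2.74, than against bl10 alone, at -1.31.

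The rows named Aadat stood at 0.80 and 0.77 in bl10 and at 1.33 and 1.02 in bl6. The DS samples ran from -1.10 through a median of -0.45 to 0.23, all below the wild type samples. Of the other groups, dysf was at -0.03 and -0.03 and sspn at -0.10 and -0.14, while sjl was at 0.45 and 0.60 and hDMD at 0.90 and 0.71. These were the only rows of the 6 genes with low values in sspn. The mean log2 difference of the DS lines from wild type was -1.43 ± 0.31 (SE), or 2.69-fold.

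For background, 88 of 6540 genes (1.35%) were called lower in the DS lines than in wild type by limma at a Benjamini-Hochberg adjusted p under 0.05, 422 (6.45%) were called higher, and 510 (7.8%) were called in either direction. With the opposite direction of the ratios, 422 genes would be the ones called lower. In 3.3% of genes every DS sample level lay below every wild type sample level, as it did for Inmt and Aadat. In 12.8% of genes all 7 DS lines were lower than wild type, as were Slc2a4, Lpin1, Inmt, Aadat and Ppp1r1a. Since the 6 genes were selected on this fall, nothing is read from these counts about them. Ranked by the fall, Inmt was number 2 of 6540, Ppp1r1a 11, Slc2a4 22, Lpin1 24, Aadat 26 and Ech1 109; with the direction turned, these would be ranks among rises.

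With every sample given a free level, DS samples below all wild type samples numbered 12 of 14 for Inmt, 11 for Slc2a4, 10 for Ppp1r1a and Aadat, 8 for Lpin1 and 7 for Ech1. The groups thus overlapped more with free levels, of which array error is a part. In that solution the median of the DS samples remained below that of the wild type samples for each gene, for instance -0.61 against 1.63 for Inmt and -0.58 against 0.78 for Ech1.

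Single arrays that set a DS sample directly against a wild type sample are the closest view of the contrast, although the dye term removed from them comes from all arrays. On the array of sgca against bl6, the ratio after removal of the dye term was -2.44 for Slc2a4, -2.32 for Lpin1, -1.22 for Ech1, -2.07 for Ppp1r1a and -3.95 for Inmt. The Inmt value is the mean of the rows that were 3.77 apart on that array. On the array of mdx against bl6 the values were -2.31 for Slc2a4, -1.56 for Lpin1, -0.83 for Ech1, -2.82 for Ppp1r1a and -1.91 for Inmt. On that of mdx3cv against bl10 they were -0.81, -0.75, -1.03, -1.23 and -1.53 in the same order of genes. The array of sgcb2 against bl10 was the exception. Inmt was higher in sgcb2 there, by 0.89, while Slc2a4 was at -0.71, Lpin1 at -1.30, Ech1 at -0.92 and Ppp1r1a at -0.73. No array set sgcb, sgcd, dysf, sspn or hDMD directly against wild type, and their values rest on chains of arrays.

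The size of the difference from wild type varied from line to line, as the map of lines and genes shows. In sgcd the log2 difference was -2.51 ± 0.48 for Slc2a4, -2.48 ± 0.52 for Lpin1, -1.19 ± 0.41 for Ech1, -2.32 ± 0.45 for Ppp1r1a and -3.45 ± 0.76 for Inmt (SE, 2 samples against 4). These were the lowest values of any line for Slc2a4, Lpin1, Ppp1r1a and Inmt. In sgca the values were -2.15 ± 0.43 for Slc2a4, -2.26 ± 0.47 for Lpin1, -1.33 ± 0.37 for Ech1, -1.81 ± 0.40 for Ppp1r1a and -2.30 ± 0.68 for Inmt. The dystrophin-deficient line mdx3cv had smaller differences for Slc2a4, at -1.02 ± 0.44, and Lpin1, at -0.80 ± 0.48, than mdx, at -1.57 ± 0.42 and -1.31 ± 0.46. Between these lines the difference, mdx minus mdx3cv, was -0.55 ± 0.49 for Slc2a4 and -0.51 ± 0.54 for Lpin1, about its SE.

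The line sgcb was nearer to wild type than the other DS lines for Slc2a4, Lpin1, Ppp1r1a and Ech1, and not for Inmt or the Aadat rows. Against wild type, Slc2a4 was at -0.33 ± 0.51, Lpin1 at -0.23 ± 0.56, Ppp1r1a at -0.40 ± 0.49 and Ech1 at 0.30 ± 0.44 (SE, 2 samples against 4). Inmt was at -2.68 ± 0.83, mostly through sample 2 when samples had free levels, and Aadat at -1.05 ± 0.53. The line sgcb2, whose name gives the same missing gene, had values of -1.51 ± 0.45 for Slc2a4, -1.52 ± 0.49 for Lpin1, -1.40 ± 0.42 for Ppp1r1a, -1.08 ± 0.38 for Ech1 and -1.34 ± 0.72 for Inmt. The difference of sgcb minus sgcb2, given with no test, was 1.18 ± 0.56 for Slc2a4, 1.30 ± 0.61 for Lpin1, 1.004 ± 0.533 for Ppp1r1a, 1.38 ± 0.48 for Ech1 and -1.33 ± 0.90 for Inmt. Marker genes also moved with this contrast. The median of the fast fibre markers against wild type was 1.19 in sgcb and 0.04 in sgcb2, that of the macrophage markers 1.05 and 2.42, that of the neutrophil markers 2.42 and 0.12, that of the adipocyte markers 1.22 and -0.22 and that of the endothelial markers 0.77 and -0.04. The part of these shifts in the result was not tested. Without sgcb, the mean of the DS lines was -1.68 for Slc2a4, -1.67 for Lpin1, -1.81 for Ppp1r1a and -1.92 for Inmt.

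**Figure D4:**
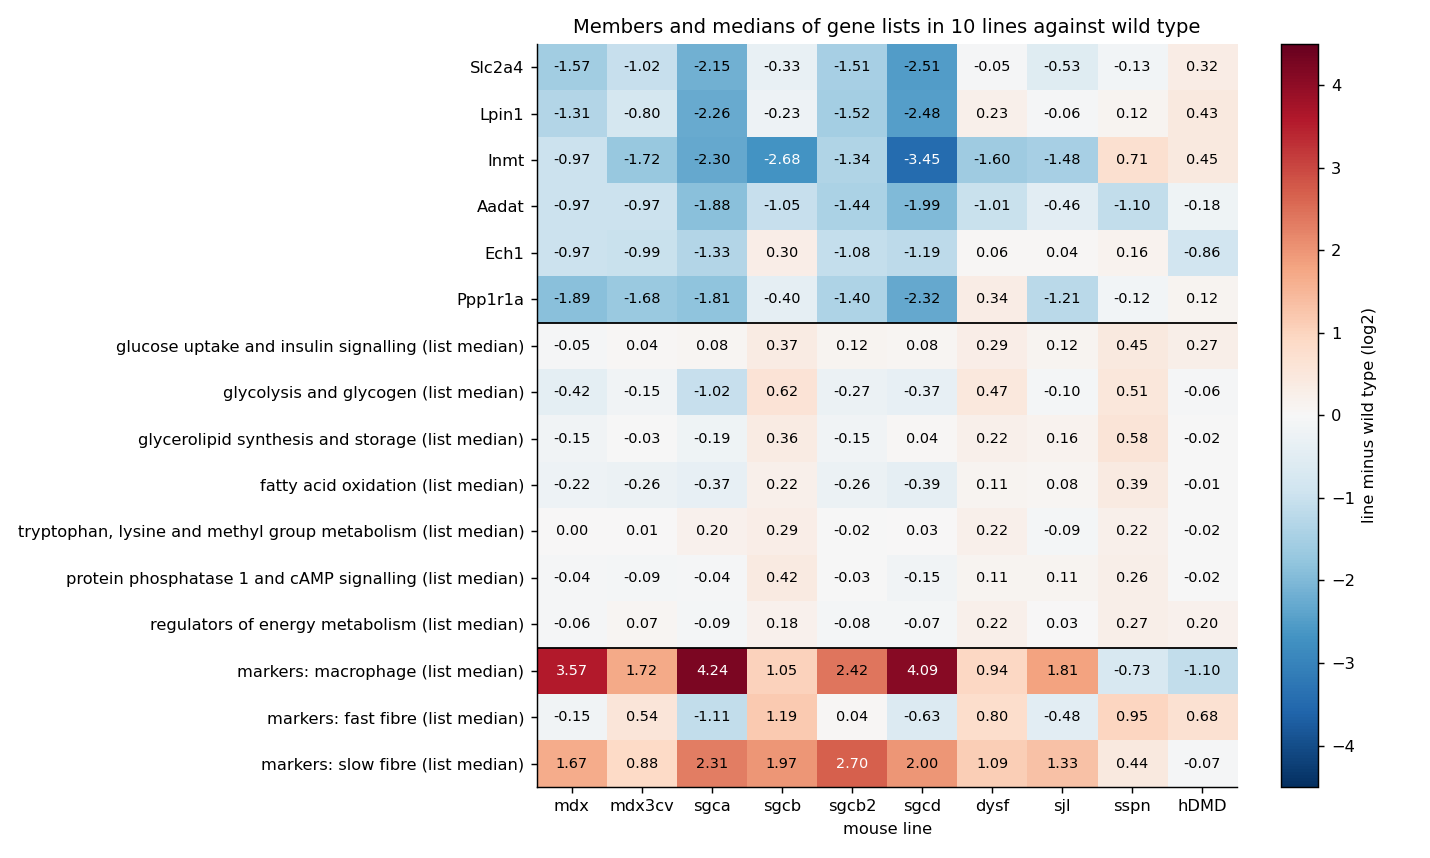
Log2 difference from wild type (colour and number) in 10 lines for the 6 genes (top), for the median of 7 lists of pathway genes without these 6 (middle) and for the median of 3 lists of marker genes (bottom). Of the 6 genes, which were chosen for their fall, Inmt in sgcd has the lowest value, -3.45, and of the pathway medians the lowest, -1.02, is that of glycolysis and glycogen in sgca.

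Outside the DS lines the 6 genes did not go together. Inmt was at -1.60 ± 0.85 in dysf and at -1.48 ± 0.69 in sjl against wild type, while Lpin1 was at 0.23 ± 0.58 and -0.06 ± 0.47. Ppp1r1a was at 0.34 ± 0.50 in dysf and at -1.21 ± 0.41 in sjl. In hDMD only Ech1, at -0.86 ± 0.42, was lower than wild type by more than its SE. In sspn only the Aadat rows were, at -1.10 ± 0.53. Inmt was at 0.71 ± 0.83 in sspn and at 0.45 ± 0.80 in hDMD. All of these share the wild type samples with the comparison that chose the genes.

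Ordered by level, neighbouring groups mostly could not be separated. Of the 11 neighbouring pairs among the 12 groups, 10 had a gap under its own SE for Slc2a4, Lpin1, Inmt, Ech1 and Ppp1r1a, and 11 for Aadat. The widest gap of Slc2a4, 0.58 ± 0.46, lay between sgca and mdx, and that of Lpin1, 0.73 ± 0.55, between sgca and sgcb2. The widest gap of Ech1, 0.74 ± 0.47, lay between hDMD and bl6, and that of Ppp1r1a, 0.71 ± 0.48, between sjl and bl10. For Inmt it was 1.16 ± 0.87, between bl10 and hDMD. From the lowest, Slc2a4 ran sgcd, sgca, mdx, sgcb2, mdx3cv, sjl, bl10, sgcb, sspn, dysf, hDMD and bl6, and Inmt ran sgcd, sgcb, sgca, mdx3cv, dysf, sjl, sgcb2, mdx, bl10, hDMD, bl6 and sspn.

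Besides the contrast that chose the genes, 4 comparisons were tested with limma over all 6540 genes. Those between dystrophin- and sarcoglycan-deficient lines and between bl10 and bl6 use samples of that contrast. All come from the same fit, so they are not fully independent of the choice. None of the 24 tests of the 6 genes passed a Benjamini-Hochberg adjusted p under 0.05, and 3 had an unadjusted p under 0.05. Over all genes, the share with an unadjusted p under 0.05 was 2.09% between dystrophin- and sarcoglycan-deficient lines and 7.98% between bl10 and bl6. It was 10.2% between dysf and sjl and 14.7% between sspn and hDMD, so nothing is read from the 3 about the 6 genes. The plot of intervals shows how wide the remaining uncertainty was. Few genes of any kind were called in these comparisons, and with 2 samples a group a miss does not show that levels were alike.

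**Figure D5:**
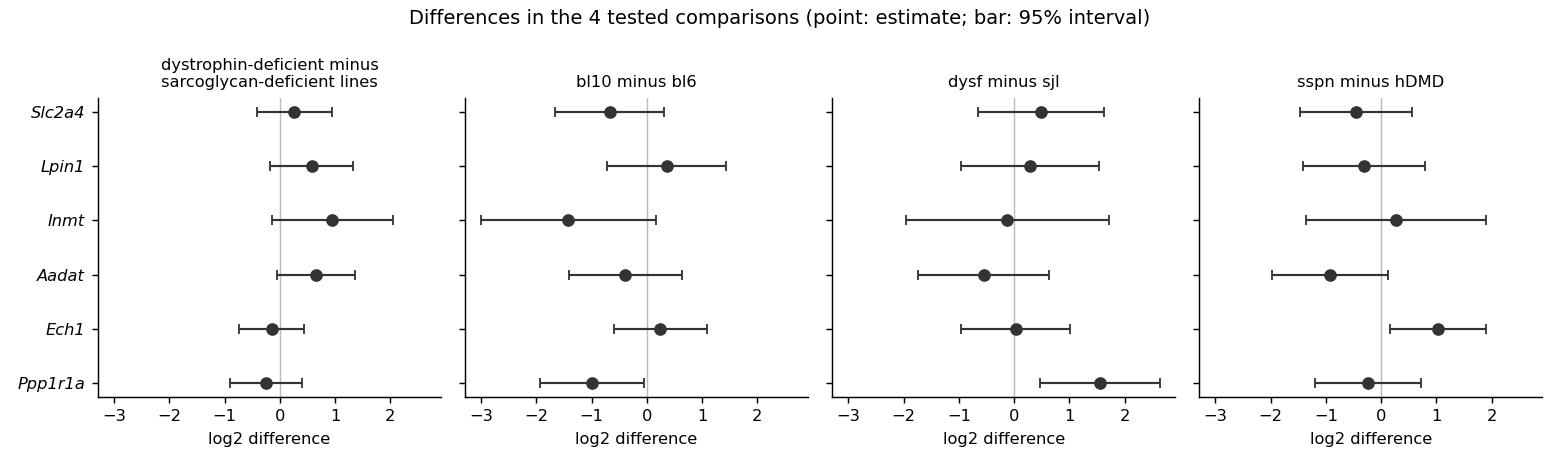
Log2 difference (point) and its 95% interval (bar) for the 6 genes in the 4 tested comparisons, the first group named minus the second. The interval leaves out 0 for Ppp1r1a in dysf minus sjl and in bl10 minus bl6 and for Ech1 in sspn minus hDMD, none of which passed after adjustment over all genes.

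Between the dystrophin-deficient and the sarcoglycan-deficient lines, 1 of 6540 genes (0.0153%) was called, and none of the 6. Inmt was higher in the dystrophin-deficient lines by 0.95 ± 0.53 (SE, 4 samples against 10), with an interval from -0.15 to 2.04 and an adjusted p of 1 by limma (0.44 to 1 over all settings). Without mdx sample 2 it was 0.33. Aadat was at 0.65 ± 0.34, Lpin1 at 0.58 ± 0.36 and Slc2a4 at 0.26 ± 0.33, on the same side of 0. Ech1, at -0.15 ± 0.28, and Ppp1r1a, at -0.25 ± 0.31, were on the other side of 0. The interval for Slc2a4 ran from -0.42 to 0.94. Over all genes, 54.8% were below 0 in this comparison. Of the marker lists, 12 of 13 macrophage markers were below 0 with a median of -0.39, and 0 of 8 fast fibre markers with a median of 0.41. The slow fibre list had 5 of 7 below 0 with a median of -0.60. Below 0 were also 8 of 9 neutrophil, 9 of 10 immature muscle, 7 of 8 adipocyte and 7 of 7 fibroblast markers. For endothelial, erythroid, liver and heart markers it was 4 of 8, 3 of 4, 4 of 6 and 2 of 4. Of the macrophage, fast fibre and slow fibre lists 0 genes were called by limma, with 2 higher and 1 lower at an unadjusted p under 0.05. At that p the neutrophil list had 3 of 9 lower and the immature muscle and adipocyte lists 1 each, with 0 called. The other marker lists had 0. Over all genes 2.09% had such a p. The part of the markers in the values of the 6 genes was not tested.

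Between the wild type strains, 1 gene (0.0153%) was called, and none of the 6. Ppp1r1a was lower in bl10 than in bl6 by a log2 difference of -0.996 ± 0.449 (SE, 2 samples against 2), with a 95% interval from -1.93 to -0.06 and an adjusted p of 0.597 by limma. It ran from -1.78 without bl6 sample 2 to -0.55 without bl6 sample 1, and its adjusted p over all settings from 0.339 to 0.997. Inmt was at -1.43 ± 0.76, with an adjusted p of 0.628 by limma, and Slc2a4 at -0.67 ± 0.47. Lpin1 was at 0.36 ± 0.52 and Ech1 at 0.24 ± 0.41. Markers moved with this contrast, though 0 of these lists' genes were called by limma. The median in bl10 against bl6 was 1.85 for the 7 slow fibre markers, of which 5 were higher and 1 lower at an unadjusted p under 0.05, and 0.97 for the 13 macrophage markers, of which 0 were below 0 and 1 was higher at that p. Over all genes 7.98% had such a p and 46.9% were below 0. The part of these markers in the values of the 6 genes was not tested. The choice of wild type strain moves the description of the fall. Against bl6 alone the DS lines were at -1.82 for Slc2a4 and -2.11 for Ppp1r1a, and against bl10 alone at -1.15 and -1.11. Lpin1 and Ech1 went the other way, at -1.28 and -0.75 against bl6 and at -1.64 and -0.99 against bl10.

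Between dysf and sjl, 10 genes (0.153%) were called, and none of the 6. Ppp1r1a had the smallest p of all 24 tests. It was 2.93-fold higher in dysf, a log2 difference of 1.55 ± 0.52 (SE, 2 samples against 2) with an interval from 0.47 to 2.64, an unadjusted p of 0.00737 and an adjusted p of 0.359 by limma. Across the alternative settings its adjusted p ran from 0.109 to 0.997. Slc2a4 was at 0.48 ± 0.55, Lpin1 at 0.29 ± 0.60, Ech1 at 0.03 ± 0.47, Inmt at -0.12 ± 0.88 and Aadat at -0.55 ± 0.57. Neutrophil markers moved with the same contrast. Of their 9 measured genes, 3 were called higher in dysf, among them S100a8 at 4.94 ± 0.79 (adjusted p 0.0121 by limma) and Ngp at 3.83 ± 0.63 (adjusted p 0.0121), and the median of the fast fibre markers was 1.30. S100a8 and Ngp were each not called in 10 of 36 alternative settings, with adjusted p up to 0.244 and 0.539 by limma. The call of both was lost without dysf sample 2, without either hDMD sample and without either sjl sample, and that of Ngp also without sspn sample 1. Their part in the values of the 6 genes was not tested.

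Between sspn and hDMD, 32 genes (0.489%) were called, and none of the 6. Ech1 was 2.04-fold higher in sspn, a log2 difference of 1.03 ± 0.42 (SE, 2 samples against 2) with an interval from 0.16 to 1.90, an unadjusted p of 0.0229 and an adjusted p of 0.246 by limma. This value depended on single samples. It was 0.23 without hDMD sample 1 and 1.71 without hDMD sample 2, where the adjusted p by limma was 0.0214; without mdx3cv sample 1 it was also called, and over all settings the adjusted p ran from 0.0214 to 0.919. Aadat was at -0.92 ± 0.50, Slc2a4 at -0.45 ± 0.49, Lpin1 at -0.31 ± 0.53, Ppp1r1a at -0.24 ± 0.46 and Inmt at 0.27 ± 0.78. Markers moved with this contrast too, with 1 of 8 adipocyte, 3 of 9 neutrophil and 1 of 7 fibroblast markers called higher in sspn. Fabp4, a fatty acid carrier of adipocytes, was called higher in sspn at 4.52 ± 0.92 (adjusted p 0.026 by limma), as was S100a9 at 5.37 ± 0.60 (adjusted p 0.000113). Fabp4 was at 1.91 without hDMD sample 1 and at 6.65 without hDMD sample 2. It was not called in 11 of 36 alternative settings, 8 of them with 1 sample left out, with an adjusted p of up to 0.603 by limma. Their part in the result was not tested.

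The other genes of the pathways around the 6 are given by their counts in the DS lines against wild type. Over all genes, 6.45% were called higher and 1.35% lower, and 16.1% were higher and 5.84% lower at an unadjusted p under 0.05. Lists of 15 to 25 genes with counts near these shares show nothing particular to the list. In the lists below the 6 genes themselves are left out, and the share of all genes with a difference below 0 was 44.5%, with a median of 0.06. The lists were chosen with earlier results of these data known.

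Of 25 other genes of glucose uptake and insulin signalling, 1 was called higher and 1 lower in the DS lines, and the median was 0.08. Pdk2, a kinase that switches off pyruvate dehydrogenase, fell by 1.26 on the log2 scale, with an SE of 0.38 and an adjusted p of 0.0487 by limma. Pik3ca, the catalytic subunit of a phosphoinositide kinase downstream of the insulin receptor, was higher by 0.79 ± 0.24 (adjusted p 0.0484 by limma). Pdk2 was not called in 23 of 39 alternative settings, 17 of them with 1 sample left out, and Pik3ca was not called in 26 of 39, 19 of them with 1 sample left out. The other glucose transporters on the arrays did not pass, with Slc2a1 at -0.25 ± 0.21 and Slc2a3 at -0.30 ± 0.31, and neither did the insulin receptor Insr at -0.59 ± 0.25 or hexokinase 2, Hk2, at 0.01 ± 0.22.

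Of 21 genes of glycolysis and glycogen, 0 passed in either direction by limma (3 lower and 0 higher at an unadjusted p under 0.05). In this list 17 genes had values below 0 and the median was -0.24, against 0.06 over all genes. The subunit Ldhb of lactate dehydrogenase was lowest, at -0.84 ± 0.29 (adjusted p 0.0868 by limma; named after its value was seen). The list median was -1.02 in sgca and 0.62 in sgcb, and the median of fast fibre markers was -1.11 in sgca and 1.19 in sgcb.

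Of 20 other genes of glycerolipid synthesis and storage, 0 passed in either direction by limma (4 lower and 0 higher at an unadjusted p under 0.05), with a median of -0.02. The acyltransferases Gpam, at 0.56 ± 0.46, and Dgat1, at 0.16 ± 0.27, act before and after lipin 1 in this path and were not called. In the comparison of sspn with hDMD, 2 genes of this list were called higher in sspn. They were Fabp4 and the desaturase gene Scd2, at 2.49 ± 0.50 (adjusted p 0.0221 by limma), which was not called in 10 of 36 alternative settings and was 1.36 without hDMD sample 1 and 3.44 without hDMD sample 2.

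Of 21 other genes of fatty acid oxidation, 0 passed in either direction by limma (2 lower and 0 higher at an unadjusted p under 0.05). In this list 15 genes had values below 0, and the median was -0.20. The lowest was Cpt2, the inner membrane carnitine palmitoyltransferase, at -0.82 ± 0.28 (adjusted p 0.0822 by limma; named after its value was seen). Eci1, another isomerase of unsaturated fatty acids, was at -0.31 ± 0.31 and Ehhadh, a peroxisomal enzyme, at -0.31 ± 0.25. The median of the list was 0.22 in sgcb, in which Ech1 was at 0.30 ± 0.44 against wild type, and -0.39 in sgcd.

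Of 15 other genes of tryptophan, lysine and methyl group metabolism, 0 passed in either direction by limma (2 higher and 0 lower at an unadjusted p under 0.05), and the median was 0.03. The nicotinamide methyltransferase Nnmt was at 0.53 ± 0.24, on the other side of 0 from Inmt. Aass and Gcdh, which act in lysine breakdown, were at -0.21 ± 0.23 and -0.26 ± 0.29.

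Of 18 other genes around protein phosphatase 1 and cAMP signalling, 0 passed in either direction by limma (2 lower and 1 higher at an unadjusted p under 0.05), with a median of -0.01. The close relative of inhibitor 1, Ppp1r1b, was at -0.37 ± 0.20. The catalytic subunits of the phosphatase were at 0.35 ± 0.38 for Ppp1ca, 0.13 ± 0.28 for Ppp1cb and -0.01 ± 0.25 for Ppp1cc. Of 23 regulators of energy metabolism, 0 passed by limma (1 lower and 2 higher at an unadjusted p under 0.05), with a median of -0.01. The coactivator Ppargc1a was at -0.18 ± 0.21, the receptor Ppara at -0.16 ± 0.29 and the receptor Esrra at -0.32 ± 0.20.

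Markers of other cells and fibre types moved with the same contrast. Of 13 macrophage markers 11 were called higher in the DS lines by limma, with a median of 2.85, among them Clec7a at 4.10 ± 0.49 (adjusted p 0.000178) and Ptprc at 2.85 ± 0.47 (adjusted p 0.00202). Of 7 fibroblast markers 5 were called higher, with a median of 1.07, and of 7 slow fibre markers 4, with a median of 1.80, among them Tnni1 at 3.24 ± 0.56 (adjusted p 0.00247). Of 9 neutrophil markers 3 were called higher, and of 10 markers of immature muscle 3. Of 8 fast fibre markers 0 passed (1 higher and 0 lower at an unadjusted p under 0.05), with 5 values below 0 and a median of -0.15. Of the 8 adipocyte, 8 endothelial, 4 erythroid, 6 liver and 4 heart markers 0 passed by limma (0 to 1 lower and 0 higher at an unadjusted p under 0.05). By line, the macrophage median against wild type was 4.24 in sgca, 4.09 in sgcd, 3.57 in mdx, 2.42 in sgcb2, 1.72 in mdx3cv and 1.05 in sgcb. It was 1.81 in sjl, 0.945 in dysf, -0.733 in sspn and -1.1 in hDMD. Slc2a4 and Lpin1 were lowest in sgcd and sgca and near wild type in sgcb. In sjl and mdx3cv, lines with similar macrophage medians, Lpin1 was at -0.06 ± 0.47 and -0.80 ± 0.48 (SE), values with overlapping errors. The part of cell makeup in the fall of the 6 genes was not tested.

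The 6 genes followed each other across groups to different degrees, which is given as a description over 13 group levels that share arrays. The correlation was 0.957 between Slc2a4 and Lpin1, 0.932 between Slc2a4 and Ppp1r1a and 0.859 between Lpin1 and Ppp1r1a. It was 0.792 between Ech1 and Lpin1. Inmt followed the others less, with 0.712 to Slc2a4, 0.641 to Lpin1 and 0.322 to Ech1. Since all were selected on 1 contrast, some likeness between them is built in.

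Genes outside the 6 with the most similar pattern were taken as the 3 with the highest correlation over the 13 group levels, among 4315 genes whose levels spanned at least 1 log2 unit. For Slc2a4 they were Nrtn (0.97), Adssl1 (0.957), a muscle enzyme of purine nucleotide synthesis, and Dnajb2 (0.949). For Lpin1 they were Il12a (0.973), Rilpl1 (0.965) and Ugt2b5 (0.962). For Ech1 they were G0s2 (0.973), an inhibitor of the main triglyceride lipase, Mpc1 (0.938), a subunit of the mitochondrial pyruvate carrier, and Cyp4f14 (0.936). G0s2 was lowest in hDMD, at -0.83, and highest in sgcb, at 1.04, and Ech1 was highest in sgcb too. For Ppp1r1a they were Zfp467 (0.963), Timp4 (0.95) and Mlxipl (0.949), a transcription factor that responds to carbohydrate. For Inmt the correlations were lower, at 0.86 for Tbx5, 0.814 for Art5 and 0.809 for Pcyt1a. For Aadat they were Hexa (0.999), Cacna1e (0.999) and Ugt8a (0.997), which are among the rows described above.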

How the data were processed

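Total RNA was measured on arrays with 2 channels, with each of 26 samples on 2 arrays. The authors deposited ratios on a natural log scale; the design had assumed log2. On 26 of 26 arrays, chains of 11 to 61 recurring steps matched the natural log unit within 1%, on 0 the log2 or log10 unit. The form of the steps was that of a generalized logarithm, which understates changes of dim spots. The values were divided by 0.6931. Their centring (array medians of -0.074 to 0.172 on the natural log scale), the dyes, the scanner and the normalization are not given in the sources used here.

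The direction was not stated. Channel 1 over channel 2 was taken as likely, because 7 of 9 pairs of a line and the gene it lacks were then lower in that line, against 2 of 9 otherwise. Every sign rests on it. Of 16416 rows, 13662 had 1 gene, 14 several and 2740 none; 13602 matched RefSeq by Entrez identifier, with 0 symbols updated.

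Ratios were fitted in R 4.3.3 by generalized least squares with 1 dye term, 12 group terms and each sample as a random effect (variance ratio 0.207 by REML), then tested with limma 3.58.1 (residual degrees of freedom 13, prior 7.38), adjusted by Benjamini-Hochberg over 6540 genes at 0.05. The fit was tested on simulated data. The number of arrays limits precision; residual SDs had a median of 0.49 log2 units. Tables and plots used Python 3.11.15. Named genes are the 6, the 3 most alike to each (without predicted or clone symbols), and up to 2 called genes of each list in each direction and comparison; relatives named beside them were picked after values were seen. The 6 genes and the lists were chosen with earlier results of these data known. Alternatives changed centring, scaling, the random effect, weights, rows, wild type strain, samples and the replicate block; leaving out sgcb was added after seeing the data. A further sarcoglycan-deficient line is in the pooled lines and in all counts of 13 groups and is not reported on its own.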

Additional observations from a re-analysis of the deposited data

Results flagged for a closer look

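Ech1 in sgcb was singled out by its fitted sample levels, which lay on the other side of wild type from those of the other DS lines. As fitted, both sgcb samples lay above all 4 wild type samples, whereas mdx, mdx3cv, sgca, sgcb2 and sgcd each had both samples below all of them. The log2 difference of sgcb from wild type, 0.30 ± 0.44 (SE), was within its SE, so a rise is not shown. With every sample given a free level, sgcb was at 0.30 and 0.05, bl10 at -0.06 and 2.11 and bl6 at 1.62 and -0.43. In that solution mdx sample 1, at 0.79, sgca sample 2, at -0.16, and both mdx3cv samples, at -0.38 and 1.08, were not below all wild type samples. The difference between sgcb and the other DS lines was not tested, since the wild type values took part in the choice of the gene.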

How the results depend on the processing

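The falls of the 6 genes in the DS lines against wild type moved by less than the residual SD of the gene in 234 of 234 alternative values, and 0 reversed. This limit is loose. The residual SD was 1.065 for Inmt and 0.60 for Slc2a4, against an SE of the fall of 0.48 and 0.30. Within it, Inmt ran from -2.74 against bl6 alone to -1.31 against bl10 alone. In the 4 tested comparisons, 809 of 864 values kept their direction and their side of the threshold, 53 reversed and 2 passed the threshold, both of Ech1 in sspn against hDMD.

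Counts of called genes moved more. In the DS comparison the count of 510 became 218 with arrays centred and scaled, 248 with quantile normalization, 256 with a variance ratio of 1 and 10 against bl10 alone, and ran from 76 (without bl6 sample 1) to 682 (without sjl sample 1). Leaving out bl10 gave 211 (sample 1) or 93 (sample 2) and leaving out sgcb2 gave 230 (sample 1) or 328 (sample 2). Leaving out sample 1 of mdx gave 94, of sgca 220 and of sgcd 329, and leaving out sample 2 of mdx3cv gave 205. In sspn against hDMD, 32 became 71 with arrays centred, 53 centred and scaled, 3 with quantile normalization, 49 with no random effect, 9 with a variance ratio of 1, 52 with array weights and 18 with the first row, and ran from 1 (without hDMD sample 1 or sspn sample 2) to 498 (without hDMD sample 2). In bl10 against bl6, 1 became 2 centred and scaled, 8 with quantile normalization and 48 with array weights (0 to 2 with a sample left out). In dysf against sjl, 10 became 5 with quantile normalization, 22 with no random effect, 0 with a variance ratio of 1 and 0 with the first row (0 to 23 with a sample left out). In dystrophin- against sarcoglycan-deficient lines, 1 became 0 with a variance ratio of 1, 7 with array weights and 0 with the first row (0 to 1 with a sample left out). The cause was not tested.

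Reversals were of values not called. Ech1 in dysf against sjl became -0.042 with arrays centred, -0.22 centred and scaled, -0.18 with quantile normalization, -0.22 with a variance ratio of 1, -0.00094 with the last row and -0.14 with the replicate block, and ran from -0.39 to 0.33 with a sample left out. Ech1 in dystrophin- against sarcoglycan-deficient lines became 0.025 centred and scaled and 0.051 with quantile normalization (-0.39 to 0.13). Centred and scaled, Lpin1 became -0.066 in dysf against sjl (-0.30 to 1.1) and 0.069 in sspn against hDMD (-0.71 to 0.10), and Ppp1r1a 0.24 in sspn against hDMD (-0.52 to 0.37). Inmt became -0.19 in sspn against hDMD with quantile normalization (-0.73 to 1.58) and 0.64 in dysf against sjl with array weights (-1.33 to 1.34), and Aadat 0.013 in bl10 against bl6 with array weights (-1.27 to 0.17). With a sample left out, Aadat also ran from -1.09 to 0.13 in dysf against sjl and from -0.062 to 0.86 in dystrophin- against sarcoglycan-deficient lines, Lpin1 from -0.41 to 0.71 in bl10 against bl6, and Slc2a4 from -0.21 to 1.05 in dysf against sjl and from -0.18 to 0.49 in dystrophin- against sarcoglycan-deficient lines.

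Samples share only a replicate number across groups: deviations of same-numbered samples correlated with a median of -0.03 (from -0.61 to 0.64), and 64 of 156 pairs were over 0.1. With the replicate block the DS comparison called 543 genes, and the block changed no call of the 6 genes. The spread over 2 samples a group, the understated change of dim spots and the unknown background of each spot limit what low values show.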
